A study of Arabidopsis thaliana with 4 samples.

Results

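The RNA helicases described here are the genes of Arabidopsis thaliana whose annotation in the authors' deposited table contains the phrase RNA helicase. The phrase stands in 68 of the 31346 rows, and 65 genes were taken, with 3 rows left out by the rule that defines the set. RNA was measured in whole seedlings, 6 d old, from a line numbered 5 that overexpresses ClpD in the wild-type background (ClpD-OE, 2 libraries) and from wild type (WT, 2 libraries). The series' design text calls the overexpression constitutive and does not name its promoter, and it says that the precursor of the ClpD protein accumulated in such seedlings. ClpD is a nuclear-encoded chaperone of the chloroplast Clp protease system. Both ClpD-OE libraries carry the number of that 1 line, so effects of overexpression and of anything else particular to that line cannot be told apart. Total counts were 23294451 and 22764333 in the ClpD-OE libraries and 20800842 and 21896988 in the WT libraries. CLPD (AT5G51070) itself had 1669 and 1870 normalized CPM (counts scaled to TMM-adjusted library size) in the ClpD-OE libraries, against 151 and 147 CPM in the WT libraries, so the libraries stood as labelled. Nothing in the labels says that replicates were separate cultures, so the spread behind the p-values may be technical.

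RNA helicases use ATP to unwind RNA duplexes or to strip proteins from RNA, and they act at nearly every step in the life of an RNA. DEAD-box helicases, the largest group in plants, carry a Q motif ahead of their helicase core and separate short duplexes locally. DEAH-box and SKI2-like helicases lack the Q motif and move along RNA in spliceosomes and in RNA decay. In plants, nuclear-encoded helicases are also imported into chloroplasts and mitochondria, where they serve group II intron splicing and the assembly of organelle ribosomes.

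The annotation phrase gathered genes of different kinds, which the domain notes of the RefSeq annotation of assembly TAIR10.1 separate. A Q motif was noted in 28 members, with coding lengths from 1179 to 3267 bases, and a helicase domain without a Q motif in 28 others, from 1107 to 4380 bases. The remaining 9 members had no helicase domain noted and short coding lengths, from 267 to 615 bases. Those 9 genes (AT1G15260, AT1G24575, AT1G28070, AT1G36020, AT2G33510, AT3G16070, AT4G30010, AT5G28610 and AT5G57000) therefore go against the label as far as the notes reach, and they are counted apart below. The members without a Q motif also include genes whose names belong to DNA repair and recombination, namely FANCM, RAD5 and RecQl3.

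The promoter of emb1138, a chloroplast helicase gene that was called higher and had the highest level of all members, is shown because its window overlaps no other gene and holds site II elements, motifs known from promoters of genes for ribosomal and organelle proteins. The sequence gives the 250 bases before the annotated transcript start, 5′ to 3′ on the strand of the gene, from RefSeq TAIR10.1, while the submitters' processing notes name TAIR10. Capitals mark TGGGCC or TGGGCT on either strand. The window is chr5:9289004-9289253 on the minus strand.
emb1138: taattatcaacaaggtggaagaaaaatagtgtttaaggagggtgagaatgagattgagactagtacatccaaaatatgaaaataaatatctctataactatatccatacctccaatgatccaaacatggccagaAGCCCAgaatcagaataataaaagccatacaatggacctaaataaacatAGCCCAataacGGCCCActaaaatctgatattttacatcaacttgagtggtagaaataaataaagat
The window held 3 site II elements. Site II elements were found in 25 of the 65 member promoters (38.5%) and in 5264 of 27439 promoters of protein-coding nuclear genes of the same length (19.2%). The 27439 promoters were not limited to genes with enough counts to be tested, while most members were tested. No share over tested genes alone was taken. Among members, 6 of the 13 called higher below held one (46.2%), and 19 of 45 tested members not called (42.2%). The telo-box AAACCCTA, searched on both strands, was in 4 member promoters (6.15%) and in 4.49% of all promoters. The heat shock element core GAANNTTC was in 2 member promoters (3.08%) and in 9.55% of all promoters. These matches describe letters in a window and no binding was measured.

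In ClpD-OE seedlings, 5 of the 7 helicases in the chloroplast and mitochondrial lists and 5 of the 8 in the ribosome biogenesis list were called higher, with 0 lower. The spliceosome, mRNA export, exosome and mRNA decay lists had 0 of 14 tested members called by edgeR with TMM scaling, and DESeq2 called 1 of them, AT1G51380 of the export list. With libraries scaled to their totals, edgeR called AT1G27900, AT2G47250, AT3G62310, UAP56b, AT1G51380, HEN2 and AT3G46960 of these lists higher. The rest of the 14 were then not called, and 14.3% of all genes were called higher. All these lists were drawn up from general knowledge of gene roles, with earlier results of these data known. The contrast between them therefore describes these libraries and is not an independent test. Of the 65 members, 59 had counts high enough to be tested, and 13 were called higher in ClpD-OE (22%). The calls come from the quasi-likelihood test of edgeR, at a p under 0.05 after Benjamini-Hochberg adjustment over the 18940 genes tested. Over all those genes 4.29% were called higher and 3.91% lower. The 1 member called lower, AT2G33510, is among the genes with no helicase domain noted. The median log2 fold change was 0.19 over the tested members and 0.001 over all tested genes, and 49 of 59 members had a value above 0 (83.1%), against 50.1% of all genes. Normalized CPM in both ClpD-OE libraries exceeded both WT libraries for 37 of 59 members (62.7%), against 30.5% of all genes, and lay below both for 5 members (8.47%), against 29.4%.

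**Figure D1:**
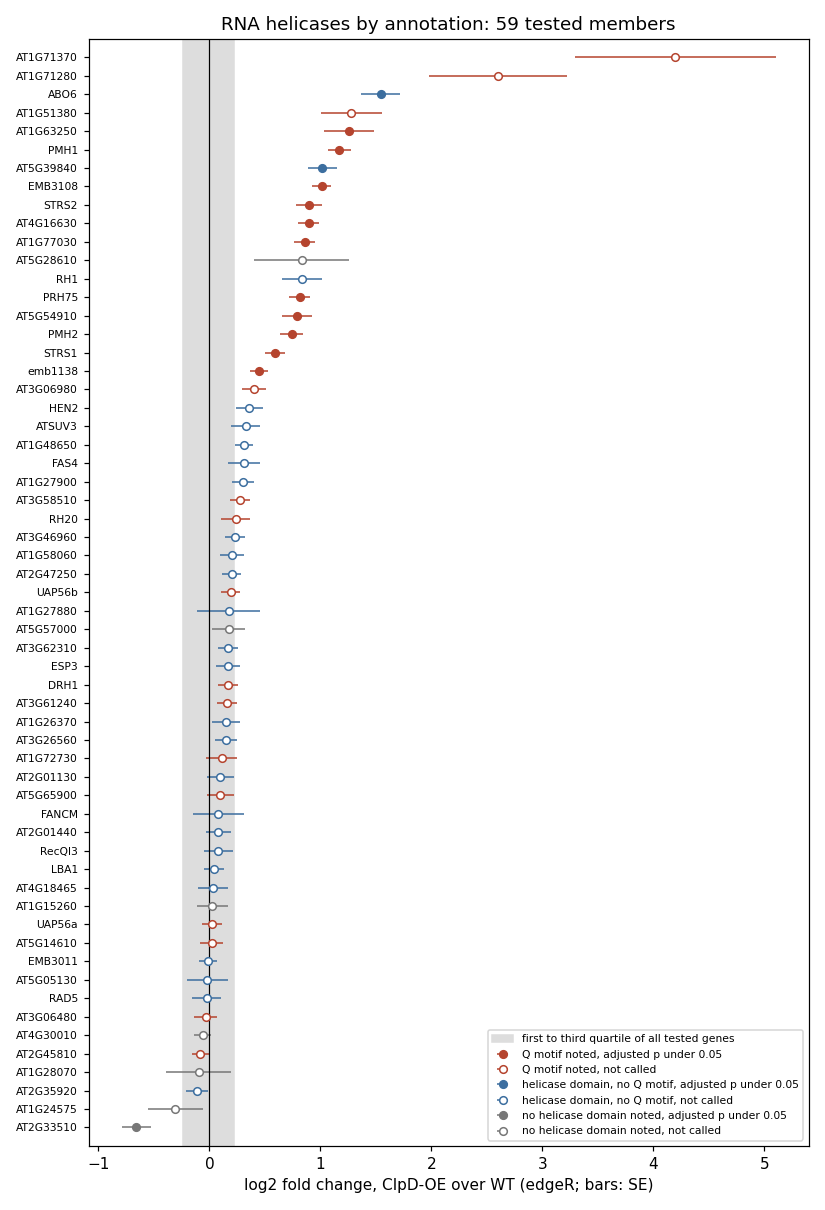
Log2 fold change of ClpD-OE over WT (x axis) for each of the 59 tested members (rows, sorted), with bars of 1 SE from edgeR. Filled points passed an adjusted p under 0.05, colour gives the domain notes, and the grey band spans the first to the third quartile of all tested genes, from -0.24 to 0.23; the 2 values at the top, AT1G71370 and AT1G71280, rest on 0 to 5 counts in each WT library.

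The number of calls depended on single libraries. Without WT replicate 2, edgeR called 13 members higher, 12 of them shared with the calls from all libraries, at a share of 6.07% over all genes. Without WT replicate 1, it called 6 members higher (EMB3108, PMH1, ABO6, AT4G16630, AT1G77030 and PRH75), at a share of 1.06% over all genes. Without either ClpD-OE library edgeR called 0 genes of any kind, while 17 and 19 members were higher at an unadjusted p under 0.05, at shares of 8.51% and 7.93% over all genes. In the same fits DESeq2 called 3 members higher both times (EMB3108, PMH1 and ABO6), at shares of 0.731% and 0.617%. The log2 fold change of each of the 14 called members kept its sign in all these fits. That was nearly fixed in advance, because both ClpD-OE libraries lay on the same side of both WT libraries for each of them. The plot of fold changes with each library left out shows the edgeR values. The authors' deposited table has 13 members higher and 0 lower at its own FDR under 0.05, against 4.88% and 5.92% of all genes, and these are the same 13 genes. DESeq2 on all 4 libraries called 14 members higher and 0 lower, against 5.39% and 6.43% of all genes. With libraries scaled to their totals, 27 members were called higher and 0 lower, against 14.3% and 3.05% of all genes, and 82.4% of all calls were then higher, against 52.3% with TMM scaling. RNA of the whole set came to 2811 and 2808 summed CPM in the ClpD-OE libraries, against 2210 and 2339 in the WT libraries, and without emb1138 to 2159 and 2152 CPM, against 1752 and 1839.

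**Figure D2:**
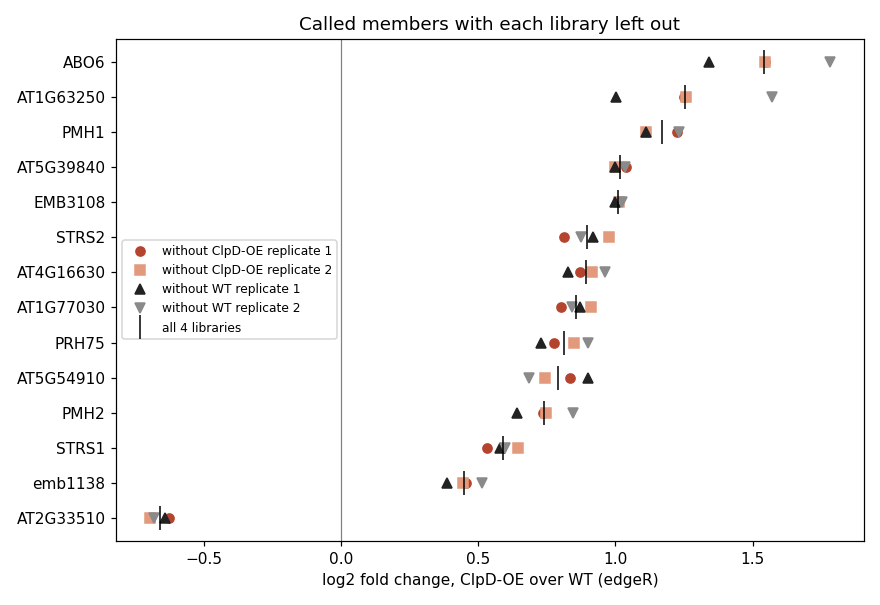
Log2 fold change of ClpD-OE over WT (x axis) for the 14 called members (rows) when each library is left out, with the value from all 4 libraries as a vertical tick. All values keep their sign, which was nearly fixed in advance, as both ClpD-OE libraries lie on the same side of both WT libraries for each gene. The values of ABO6 and AT1G63250 move furthest with the choice of WT library, from 1.34 to 1.78 and from 1.00 to 1.57.

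The chloroplast list holds 3 members, and 2 of them rose. EMB3108 (AT1G59990, RH22), a DEAD-box helicase needed for embryo development and for assembly of the chloroplast ribosome, had 55.6 and 55.5 CPM in the ClpD-OE libraries, against 27.3 and 27.8 CPM in the WT libraries. Libraries of a group lay close together and the groups were well apart, with a log2 fold change of 1.01 (SE 0.083, edgeR adjusted p = 0.0188). The gene emb1138 (AT5G26742, RH3), whose product serves intron splicing and ribosome assembly in chloroplasts, had 652 and 656 CPM in the ClpD-OE libraries, against 458 and 500 CPM in the WT libraries. It was the most abundant member per length, at 259 FPKM (fragments per kilobase of transcript, scaled to library size) in ClpD-OE and 162 FPKM in WT, and its rise was the smallest among the members called higher, at 1.37-fold (log2 value 0.45, SE 0.0815, edgeR adjusted p = 0.0397). AT3G06980, listed with the chloroplast helicases, had 112 and 109 CPM in the ClpD-OE libraries, against 76.4 and 91.0 CPM in the WT libraries. The groups did not overlap, but the difference did not pass the test (log2 fold change 0.40, SE 0.109, edgeR adjusted p = 0.0886). It passed without WT replicate 2 (edgeR adjusted p = 0.0314) and with libraries scaled to their totals (edgeR adjusted p = 0.0319).

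The mitochondrial list holds 4 members, and 3 of them rose. PMH1 (AT3G22310) and PMH2 (AT3G22330) encode DEAD-box helicases of mitochondria, where PMH2 is known to serve the splicing of group II introns. PMH1 had 37.6 and 40.7 CPM in the ClpD-OE libraries, against 16.7 and 18.1 CPM in the WT libraries, a 2.25-fold rise (log2 value 1.17, SE 0.105, edgeR adjusted p = 0.0188). PMH2 had 55.0 and 54.6 CPM in the ClpD-OE libraries, against 30.4 and 35.1 CPM in the WT libraries (log2 fold change 0.74, SE 0.102, edgeR adjusted p = 0.0263). With 1 annotated gene between them and similar products, PMH1 and PMH2 could share reads that the authors' counting had to divide, so the split between them is uncertain. AT5G39840, which the annotation places in the mitochondrion, had 11.5 and 11.8 CPM in the ClpD-OE libraries, against 5.68 and 5.81 CPM in the WT libraries (log2 fold change 1.02, SE 0.130, edgeR adjusted p = 0.0241). It is the 1 gene of the organelle lists that was called without a Q motif noted. ATSUV3 (AT4G14790), a helicase tied to mitochondrial RNA turnover, had 9.52 and 9.93 CPM in the ClpD-OE libraries, against 8.01 and 7.51 CPM in the WT libraries, and was not called (log2 fold change 0.33, SE 0.132, edgeR adjusted p = 0.185).

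ABO6 (AT5G04895) is a DEXH-box helicase of mitochondria, known for the splicing of transcripts of respiratory complex I and for a mutant that is overly sensitive to abscisic acid, and it was in no organelle list. It had 15.9 CPM in both ClpD-OE libraries, against 4.61 and 6.25 CPM in the WT libraries, and its 2.91-fold rise was the largest among called members (log2 fold change 1.54, SE 0.177, edgeR adjusted p = 0.0216). The RefSeq annotation notes a chloroplast or mitochondrial location for 12 members with a helicase domain, of which 10 were tested and 5 were called higher (emb1138, EMB3108, PMH2, AT5G39840 and ABO6). Over all genes tested 4.29% were called higher. All 10 had both ClpD-OE libraries above both WT libraries, as did 30.5% of all genes tested. The log2 fold changes of the 10 ran from 0.15 to 1.54, with a median of 0.42. The other 5, AT1G26370, AT1G58060, AT2G47250, AT3G06980 and AT3G26560, did not pass, and for all but AT3G06980 the log2 fold change was between 0.15 and 0.20. Of these, AT2G47250 and AT3G26560 also stand in the spliceosomal list. AT4G30010, noted in mitochondria and plastids but without a helicase domain noted, had both ClpD-OE libraries below both WT libraries (log2 fold change -0.06).

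No single list had more called members than ribosome biogenesis, and the chloroplast and mitochondrial lists together had as many. In the ribosome biogenesis list 5 of 8 members were called higher, against 4.29% of all genes, with a median log2 fold change of 0.84. Helicases of this list act in the nucleolus on precursors of ribosomal RNA, a role known mostly from their counterparts in yeast. PRH75 (AT5G62190), a nucleolar DEAD-box helicase, had 112 and 107 CPM in the ClpD-OE libraries, against 58.5 and 66.0 CPM in the WT libraries, a 1.76-fold rise (log2 value 0.81, SE 0.0955, edgeR adjusted p = 0.0221). AT4G16630, a DEAD-box gene, had 44.0 and 42.6 CPM in the ClpD-OE libraries, against 22.2 and 24.4 CPM in the WT libraries (log2 fold change 0.89, SE 0.0976, edgeR adjusted p = 0.0194). AT1G77030, annotated as helicase 29, had 39.5 and 36.6 CPM in the ClpD-OE libraries, against 21.2 and 20.8 CPM in the WT libraries (log2 fold change 0.86, SE 0.0974, edgeR adjusted p = 0.0213). The spread within each group was small beside these differences. AT5G54910 was lower in level, with 13.3 and 14.2 CPM in the ClpD-OE libraries, against 8.54 and 7.36 CPM in the WT libraries, and its call (log2 fold change 0.79, SE 0.138, edgeR adjusted p = 0.0371) was lost without either WT library.

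The other called member of the list is STRS1 (AT1G31970), 1 of a pair of DEAD-box genes named stress response suppressor because mutants show stronger stress-gene induction. STRS1 had 62.3 and 57.6 CPM in the ClpD-OE libraries, against 39.6 and 40.1 CPM in the WT libraries (log2 fold change 0.59, SE 0.0868, edgeR adjusted p = 0.0281). STRS2 (AT5G08620), its partner in name, had 28.0 and 25.0 CPM in the ClpD-OE libraries, against 14.4 and 14.0 CPM in the WT libraries (log2 fold change 0.90, SE 0.113, edgeR adjusted p = 0.0239). Both were thus higher in ClpD-OE, and neither was called without WT replicate 1. The 3 list members that did not pass were AT5G65900, at 15.4 and 15.8 CPM against 13.7 and 15.5 in WT, and 2 genes near the limit of counting. AT1G71280 had 24 and 23 counts in the ClpD-OE libraries, against 1 and 5 in the WT libraries (edgeR adjusted p = 0.0675). AT1G71370 had 14 counts in both ClpD-OE libraries, against 1 and 0 in the WT libraries (edgeR adjusted p = 0.0547), and it passed with the other legacy setting of the fit (edgeR adjusted p = 0.0452). The fitted log2 values of both genes, which the plots show, are imprecise with so few WT counts. The list median of 0.84 lies between the values of PRH75 and AT1G77030 and does not depend on how large these 2 fitted values are. These 2 genes lie 11 annotated genes apart on chromosome 1 and reads they share could have been divided between them.

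**Figure D3:**
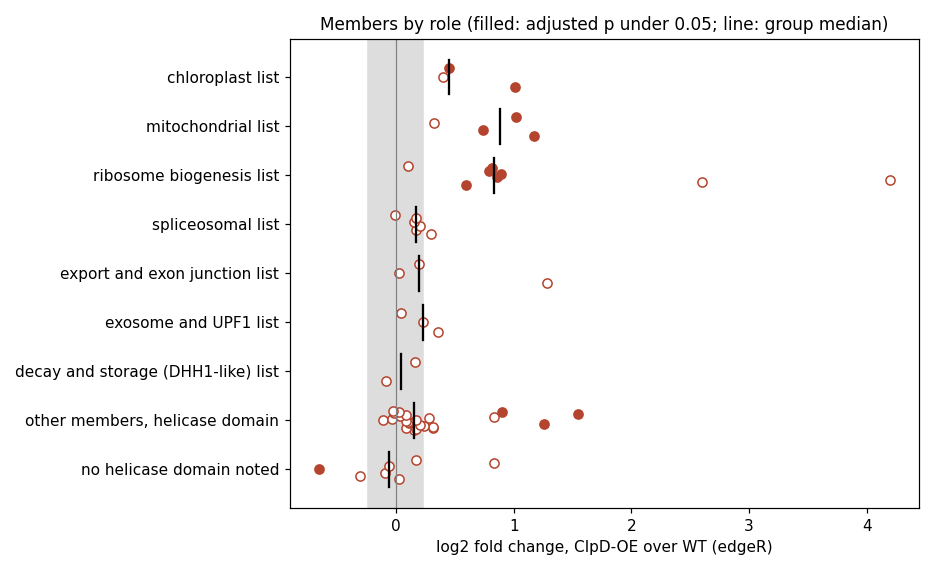
Log2 fold change of ClpD-OE over WT (x axis) of tested members grouped by role (rows), filled where the adjusted p was under 0.05, with the group median as a line and the quartile range of all tested genes in grey. The filled points of the upper rows lie between 0.45 and 1.17, the spliceosomal members between -0.01 and 0.30, and the 2 open points beyond 2 are the ribosome biogenesis genes AT1G71280 and AT1G71370.

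AT1G63250, a DEAD-box gene with no role list, completes the members called higher. It had 7.60 and 7.55 CPM in the ClpD-OE libraries, against 2.55 and 3.78 CPM in the WT libraries (log2 fold change 1.25, SE 0.226, edgeR adjusted p = 0.0391). The WT libraries differed from each other more than the ClpD-OE libraries did, and the call was lost without WT replicate 1. The genes AT1G51380 and RH1, close to the threshold, are named after their values were seen. AT1G51380, which stands in the export and exon junction list, had 3.04 and 3.72 CPM in the ClpD-OE libraries, against 1.17 and 1.60 CPM in the WT libraries (edgeR adjusted p = 0.0533, DESeq2 adjusted p = 0.0394). RH1 (AT4G15850) had 5.60 and 6.58 CPM in the ClpD-OE libraries, against 3.55 and 3.29 CPM in the WT libraries (edgeR adjusted p = 0.0558).

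**Figure D4:**
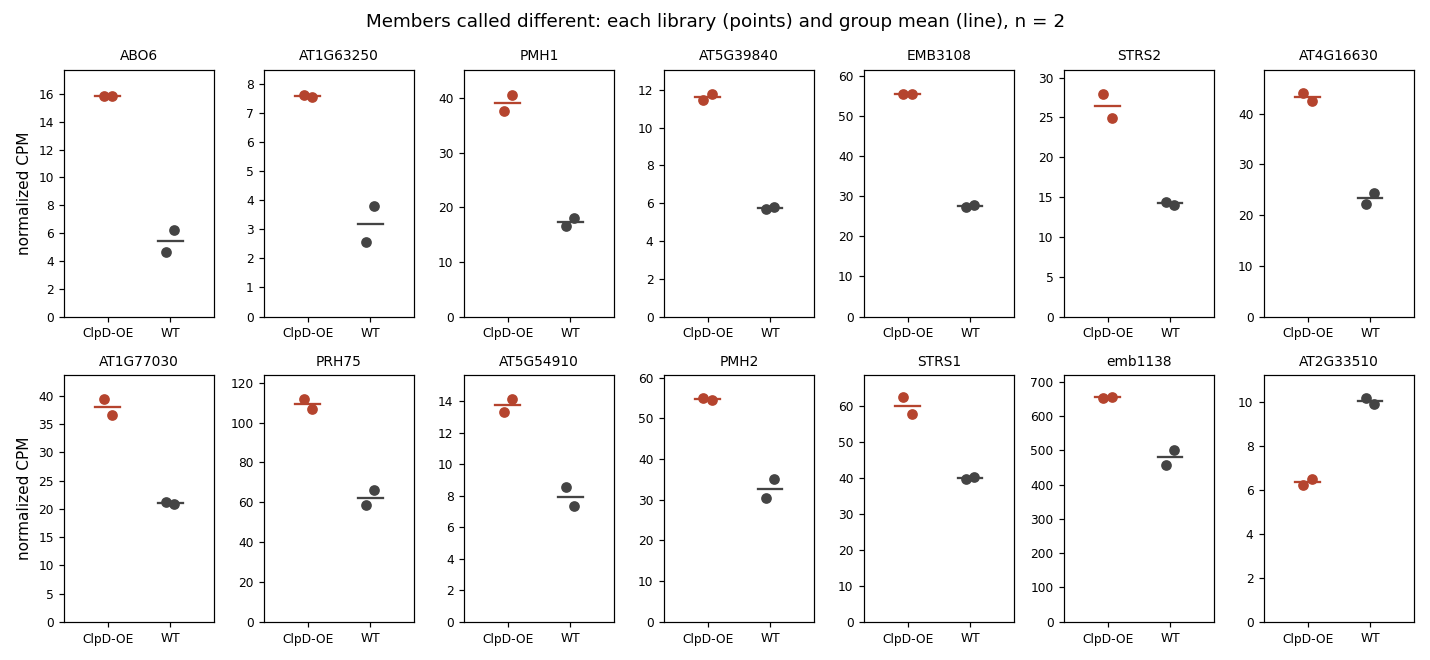
Normalized CPM (y axes, from 0) of each library for the 14 called members, with ClpD-OE left of WT, points for the 2 libraries and a line for their mean. In the first 13 panels both ClpD-OE points lie above both WT points, from 15.9 CPM against 4.61 and 6.25 for ABO6 to 652 and 656 against 458 and 500 for emb1138, and in the last, AT2G33510, below them.

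By domain, 11 of the 26 tested members with a Q motif were called higher (42.3%), with a median log2 fold change of 0.52. Of the 26 tested members with a helicase domain but no Q motif, 2 were called (7.69%), ABO6 and AT5G39840, and the median was 0.17. The 7 tested members with no helicase domain noted had 0 called higher and 1 lower, and a median of -0.06. Over all genes tested 4.29% were called higher and 3.91% lower. These domain groups were formed after values of the members were known and the shares describe these libraries. AT2G33510, annotated as an ATP-dependent RNA helicase though only 615 bases of coding length carry no such domain note, had 6.20 and 6.50 CPM in the ClpD-OE libraries, against 10.2 and 9.88 CPM in the WT libraries. It was lower by 1.58-fold, with a log2 fold change of -0.66 (SE 0.133, edgeR adjusted p = 0.0481), a call that DESeq2 did not make (adjusted p = 0.0573) and that was lost when any 1 library was left out.

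The helicases of the spliceosome showed smaller differences. Of 6 list members, 0 were called, 1 was higher at an unadjusted p under 0.05 in edgeR (14.2% of all genes were) and 0 were called by DESeq2, and log2 fold changes lay between -0.01 for EMB3011 (PRP16) and 0.30 for AT1G27900. EMB3011, whose yeast counterpart acts in the second step of splicing, had 67.4 CPM in both ClpD-OE libraries, against 69.6 and 66.3 CPM in the WT libraries, and ESP3 (AT1G32490) had 44.6 and 44.5 CPM, against 36.3 and 42.9 CPM in WT. The groups overlapped for EMB3011 and not for ESP3, whose adjusted p was 0.377 in edgeR. Both ClpD-OE libraries lay above both WT libraries for 5 of the 6 list members, all but EMB3011, as for 30.5% of all genes. In export, UAP56a (AT5G11170) had 138 and 127 CPM in the ClpD-OE libraries, against 133 and 127 CPM in the WT libraries (edgeR adjusted p = 0.889). UAP56b (AT5G11200) had 101 and 92.6 CPM in the ClpD-OE libraries, against 85.2 and 84.4 CPM in the WT libraries (edgeR adjusted p = 0.214). These near-copies of an export helicase lie 3 annotated genes apart, so the split of reads between them is uncertain.

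The members in the lists of RNA decay and of translation also did not pass with TMM scaling. With libraries scaled to their totals, HEN2, AT3G46960 of the exosome list and AT3G58510 passed (edgeR adjusted p = 0.0439, 0.0386 and 0.033). LBA1 and AT1G72730 did not pass with that scaling either (edgeR adjusted p = 0.123 and 0.166). LBA1 (AT5G47010, UPF1), the central factor of nonsense-mediated decay, had 92.6 and 99.9 CPM in the ClpD-OE libraries, against 89.6 and 97.0 CPM in the WT libraries, with overlapping groups (edgeR adjusted p = 0.787). HEN2 (AT2G06990), the nuclear exosome helicase, had 31.2 and 32.0 CPM in the ClpD-OE libraries, against 22.4 and 26.9 CPM in the WT libraries (log2 fold change 0.36, SE 0.122, edgeR adjusted p = 0.137). AT1G72730, the eIF4A-like member, had 10.2 and 9.73 CPM in the ClpD-OE libraries, against 8.59 and 9.88 CPM in the WT libraries (edgeR adjusted p = 0.651). AT3G58510, which is DED1-like, had 55.7 and 60.4 CPM in the ClpD-OE libraries, against 46.8 and 49.1 CPM in the WT libraries (edgeR adjusted p = 0.121). Missing the threshold does not show that these genes were alike in both genotypes.

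The order of levels was led by emb1138, followed per length by AT4G30010, DRH1, UAP56a, UAP56b and AT1G15260 on the mean over all libraries. AT4G30010, noted as located in mitochondria and plastids, averaged 103 FPKM in ClpD-OE and 91.8 FPKM in WT, and DRH1 (AT3G01540), a DEAD-box helicase, 104 FPKM in ClpD-OE and 79.4 FPKM in WT. The authors' FPKM carry no TMM adjustment and the normalized CPM do, so AT4G30010 had the higher FPKM in ClpD-OE but the lower CPM, with 87.0 and 87.5 CPM in the ClpD-OE libraries against 91.6 and 90.5 CPM in the WT libraries. The edgeR adjusted p was 0.641 for AT4G30010 and 0.301 for DRH1, which had 227 and 229 CPM in the ClpD-OE libraries against 191 and 216 CPM in the WT libraries. AT1G15260 had 28.1 and 35.3 CPM in the ClpD-OE libraries, against 32.0 and 30.3 CPM in the WT libraries, with overlapping groups (edgeR adjusted p = 0.928). After AT2G33510, the most negative log2 fold changes among members with a mean of at least 5 CPM were -0.11 for AT2G35920 and -0.08 for the DHH1-like AT2G45810, neither called (edgeR adjusted p = 0.505 and 0.543). With library totals in place of TMM scaling both values turn positive. The 6 members not tested were AT1G28180, AT1G36020 and AT1G58050, which had no count, and AT2G07750, AT3G16070 and AT4G33370, whose counts were too few.

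The proteins that work with these helicases were described from 6 lists with 53 entries, of which 7 were called higher and 0 lower by edgeR, against 4.29% and 3.91% of all genes. In chloroplast RNA splicing and processing, 5 of 9 genes rose, with a median log2 fold change of 0.47. The gene emb2746 (AT5G63420), which encodes a chloroplast ribonuclease of the RNase J type, had 88.1 and 89.2 CPM in the ClpD-OE libraries, against 26.7 and 39.7 CPM in the WT libraries (log2 fold change 1.42, SE 0.192, edgeR adjusted p = 0.0261). WTF1 (AT4G01037), a splicing factor for chloroplast group II introns, had 73.7 and 75.6 CPM in the ClpD-OE libraries, against 32.7 and 36.6 CPM in the WT libraries (log2 fold change 1.11, SE 0.0942, edgeR adjusted p = 0.0188). CAF1 (AT2G20020), also a chloroplast intron splicing factor, had 55.1 and 57.2 CPM in the ClpD-OE libraries, against 29.4 and 34.1 CPM in the WT libraries (log2 fold change 0.82, SE 0.105, edgeR adjusted p = 0.0239). The other two, RIF10 and RNEE/G, which encode chloroplast ribonucleases, had log2 fold changes of 0.47 and 0.49 and lost their calls without WT replicate 1 (adjusted p = 0.121 and 0.120). CRS1 and CAF2, splicing factors of the same list, had log2 fold changes of 0.03 and 0.06 and did not pass.

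Among 16 genes of the RNA exosome and SKI complex, 2 were called higher, against 4.29% of all genes, and the median log2 fold change was 0.29. At an unadjusted p under 0.05 in edgeR, 9 of the 16 were higher, against 14.2% of all genes. AT5G35910 had 46.4 and 44.7 CPM in the ClpD-OE libraries, against 28.6 and 28.2 CPM in the WT libraries (log2 fold change 0.68, SE 0.0866, edgeR adjusted p = 0.0239). AT3G07750 had 12.4 and 9.33 CPM in the ClpD-OE libraries, against 5.36 and 5.33 CPM in the WT libraries (log2 fold change 1.02, SE 0.187, edgeR adjusted p = 0.0403). Neither was called without WT replicate 1, and AT3G07750 was also not called without WT replicate 2 (edgeR adjusted p = 0.0647). Of 11 genes for eIF4F and poly(A)-binding proteins, 3 for the exon junction core, 9 for decapping and decay from the 5′ end, and 5 for mitochondrial intron splicing, edgeR and DESeq2 called 0. At an unadjusted p under 0.05 in edgeR there were 3, 0, 0 and 2, each of them higher in ClpD-OE. Over all genes 14.2% were higher and 14.1% lower at that unadjusted p. Medians of these 4 lists were 0.16, 0.12, 0.08 and 0.04 on the log2 scale.

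Markers of the tissues in a seedling were read beside these results. All 5 green tissue markers (CAB1, RBCS1A, LHCA1, PSAD-2 and RCA) were called lower, and they summed to 46133 and 46061 CPM in the ClpD-OE libraries, against 70824 and 67647 CPM in the WT libraries. With libraries scaled to their totals RBCS1A was no longer called (log2 fold change -0.17, edgeR adjusted p = 0.0857). The 11 markers of dividing cells had 0 called by edgeR and 0 at an unadjusted p under 0.05, and summed to 237 and 230 CPM in the ClpD-OE libraries, against 215 and 245 CPM in the WT libraries. Of 9 root markers, 5 were tested and 0 called by edgeR, with 2 at an unadjusted p under 0.05 and 2 listed at 0 counts in at least 1 library, and they summed to 1266 and 1301 CPM in the ClpD-OE libraries, against 1237 and 1354 CPM in the WT libraries. That sum is nearly all PYK10, at 1254 and 1285 CPM in the ClpD-OE libraries, against 1221 and 1338 CPM in the WT libraries, so it says little of the other root markers. The 2 at an unadjusted p under 0.05 went opposite ways, CASP1 with a log2 fold change of 1.17 and PHO1 with -0.59. In whole seedlings, fewer cells of a type and less RNA per cell cannot be told apart, and the part of the green tissue markers in the helicase values was not tested.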

How the data were processed

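Libraries of poly(A)-selected RNA were sequenced from whole seedlings, per the labels' protocols. The submitters' processing notes name RSEM, HISAT2, DESeq2, StringTie 1.3.1, Bowtie2 2.2.8 and fastp 0.18.0 and the build TAIR10, without saying what each did. The deposited table, by the authors, holds estimated counts per gene (whole numbers, not normalized, so that rounding changed 0 values), FPKM, a log2 fold change, and a p-value with its FDR, per the file headers. Whether counting used strand is not stated, so reads of antisense neighbours cannot be told apart. The counts of all 31346 genes were analysed in R 4.3.3 with edgeR 4.0.16 after TMM normalization. Its filterByExpr left 18940 genes, and genotype was the only term. Normalized CPM use TMM-scaled library totals, and the FPKM are the authors'. The SE is the log2 fold change divided by the square root of F. Replicates differed by more than counting noise, with a chi-square per degree of freedom of 10.2 in ClpD-OE and 18.6 in WT. Members called at an adjusted p under 0.05 (up to 20), the 6 highest by FPKM, the 3 largest rises and falls at a mean of at least 5 CPM, and members of the chloroplast, mitochondrial, eIF4A and stress lists were named by rule. Further members of the spliceosomal, export, decay and DED1-like lists, RIF10, RNEE/G, CRS1 and CAF2 were named outside it, after their values were seen. The members and lists were chosen with earlier results of these data known. Alternatives were other normalizations and filters, DESeq2 1.42.0, the other legacy setting of the quasi-likelihood fit, a replicate block and leaving out each library. Domain notes and promoters come from RefSeq TAIR10.1.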

Additional observations from a re-analysis of the deposited data

How the results depend on the processing

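The count of 13 members higher was 13 or 14 with DESeq2 size factors, upper-quartile scaling, no filter, a minimum of 1 CPM, the other legacy setting or the DESeq2 test. With library totals it was 27, and 23 entries of the partner lists were called higher in place of 7. That scaling moved the median of all genes by 0.224, the median of the members to 0.42 on the log2 scale, and the higher share of all calls to 82.4% from 52.3%. The member median less the median of all genes was 0.193 both ways. This was fixed in advance, because the scaling shifts all genes by nearly the same amount. The 1 lower call became 0 with library totals, upper-quartile scaling, no filter and DESeq2. Over the fits that leave out 1 library, the count of members higher ranged from 0 to 13 in edgeR and from 3 to 9 in DESeq2 (6 without WT replicate 1 in both), members lower were 0 in each, and partner entries higher ranged from 0 to 7 in edgeR and from 2 to 3 in DESeq2. Leaving out an arm's library assumes that the lone library varies like those of the other group, and the cause of the lost calls was not tested. The DESeq2 fits without a library and the counts by domain were added after the data were seen.

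With the replicate number as a block, 18 members were called higher and 1 lower (8.60% of all genes were higher), and 11 partner entries higher. The 5 members gained were AT1G51380, RH1, AT1G71370, AT1G71280 and AT3G06980 (edgeR adjusted p = 0.0201, 0.0336, 0.0368, 0.0408 and 0.0412), which library totals also called. The labels do not say that a number marks a shared batch. The differences between replicates 2 and 1 had a correlation of 0.265 across genes between the groups, a description from 2 pairs.

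With 2 libraries a group, changes of low-count members such as AT1G71280 and AT1G71370 cannot be sized.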
